A study of Mus musculus with 13 samples.

Results

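The comparison set the brain hemisphere on the side of a sham operation against the opposite hemisphere of sham-operated mice. It held 5 of the 13 bulk RNA sequencing libraries of the study, chosen by their labels: 2 ipsilateral libraries, from animals 4 and 6, and 3 contralateral libraries, from animals 4, 6 and 8. The mice were wild type C57BL/6 males, 12 to 16 weeks old, and all 5 libraries were collected 4 days after the sham operation. The labels do not say whether the sham operation opened the skull, and the one treatment text given for all samples names controlled cortical impact (CCI) surgery with anesthesia. CCI injures the brain by driving a piston into the exposed cortex. The other 8 libraries came from the ipsilateral and contralateral hemispheres of animals 1, 2, 3 and 5, male mice of the same strain, genotype and age taken 4 days after CCI. Those 8 are used here for the spread between libraries and for side-by-side values.

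A sham operation carries the anesthesia, handling and wounding of the surgery without the impact, and the untouched hemisphere is the nearest internal reference for it. In brain tissue, injury typically raises genes of reactive astrocytes, activated microglia, infiltrating macrophages, complement and interferon signalling. Housekeeping programmes such as the ribosomal proteins, which build the small (Rps genes) and large (Rpl genes) subunits of the cytoplasmic ribosome, are transcribed in all cells. Immediate early genes, by contrast, follow neuronal activity within minutes to hours.

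The sham libraries held 5908022 to 6874956 counts each, and the CCI libraries 5604856 to 7955076. Markers of brain tissue were high in all 5 sham libraries: the synaptic vesicle fusion gene Snap25 had 2479 to 2926 CPM (counts scaled to the library's TMM-adjusted total), the myelin gene Mbp 2699 to 2946 and the astrocyte filament gene Gfap 159 to 224. All ipsilateral names carry RH and all contralateral names LH, and their leading numbers fall in separate ranges (71 and 72 against 21, 22 and 24 in sham mice). Side of surgery, right or left, and whatever those numbers record therefore cannot be told apart. Each hemisphere gave 1 library, and p-values measure the spread between these libraries.

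The contralateral library of animal 8, which has no ipsilateral partner here, stood apart from the other contralateral libraries. For the 243 genes whose levels separated the 6 ipsilateral libraries of both treatments from the 6 other contralateral ones without overlap, animal 8 lay at a median of 0.54 of the way from the contralateral to the ipsilateral mean. Each of the other 6 contralateral libraries, held out in the same way, lay at 0.03 to 0.20 over 146 to 157 genes. The sham ipsilateral libraries of animals 4 and 6, held out likewise, lay at 0.76 and 0.88 of the way to the contralateral mean, over 314 and 363 genes, and the 4 CCI ipsilateral libraries at -0.27 to 0.21. Arfgef3, a regulator of vesicle traffic, had 61.3 to 74.3 CPM in the 6 other contralateral libraries and 37.8 to 46.7 CPM in the 6 ipsilateral ones, and animal 8 had 43.6. For this gene, picked after its values were seen, the library labelled contralateral from animal 8 was at the ipsilateral level, so results are also given without it.

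Of 14875 genes tested, 1 differed between the sham hemispheres (0.00672% of genes) by edgeR's quasi-likelihood test at a Benjamini-Hochberg adjusted p under 0.05, and it was lower on the operated side. No gene was called higher. At an unadjusted p under 0.05 there were 908 genes (6.1%), of which 411 (2.76%) were higher and 497 (3.34%) lower. Both ipsilateral libraries lay below all 3 contralateral ones for 1641 genes (11%), and above them for 1502 (10.1%). In the same fit 3233 genes (21.7%) were called between the CCI hemispheres. The test of whether the hemisphere difference was unequal in CCI and sham mice called 1165 genes (7.83%), and 393 when the ipsilateral library of animal 6 was left out. With the animal entered as a block, 5 genes were called between the sham hemispheres, all lower, among them Rpl37a, Arfgef3, Gm5641 and AC153941.1. The call of AC153941.1 rested on 1 sham library. This gene had 10.3 CPM in the contralateral library of animal 6 and 0 in every other sham library (edgeR adjusted p = 0.926 without the block). Without animal 8 the only call was Arfgef3.

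The called gene was Rpl37a, which encodes a small zinc-binding protein of the large ribosomal subunit (chromosome 1, 72711290 to 72713813, GRCm38). Its level was 126.5, 109.9 and 127.6 CPM contralaterally (animals 4, 6 and 8, in this order throughout), and 94.2 and 81.4 CPM ipsilaterally (animals 4 and 6). Both ipsilateral values lay below all contralateral ones, and below the 111.5 to 124.4 CPM of all 8 CCI libraries. The log2 fold change was -0.47 ± 0.080 (SE, n = 2 and 3; 95% interval -0.63 to -0.31), a level 1.39-fold lower (edgeR adjusted p = 0.0276). The call was not made without the contralateral library of animal 8 (adjusted p = 0.12), of animal 4 (0.208), without the ipsilateral library of animal 6 (0.943), or without the CCI contralateral library of animal 2 (0.0511), although the fold change stayed below 0. The hemisphere difference of Rpl37a was -0.01 in CCI mice. It differed from the sham one by 0.46 on the log2 scale (edgeR adjusted p = 0.00385). Rpl37a was singled out by its sham values, which also enter that test, so it gives no independent support.

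Ribosomal protein genes made up 7 of the 11 other genes that followed Rpl37a in order of p on the lower side, none of which passed the test. Rpl39, of the large subunit, had 68.7, 70.0 and 77.3 CPM contralaterally and 51.8 and 52.5 CPM ipsilaterally (log2 fold change -0.46, adjusted p = 0.0604). Rps29, of the small subunit, had 208.6, 199.8 and 225.8 CPM against 168.2 and 155.6 CPM (-0.39, adjusted p = 0.106). In both genes the groups did not overlap. Rpl32 (-0.37), Rps21 (-0.37), Rps19 (-0.37), Rpl38 (-0.36) and Rpl11 (-0.43) had adjusted p-values of 0.126 to 0.241 by edgeR and also showed no overlap. The remaining leading lower genes with clear levels were Tmsb10, an actin-binding thymosin, at 90.0 to 98.7 CPM against 74.9 in both ipsilateral libraries (-0.35, adjusted p = 0.187), and Atp5k, a subunit of the mitochondrial ATP synthase, at 69.4 to 83.1 CPM against 57.7 in both (-0.37, adjusted p = 0.325).

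The starts of ribosomal protein genes are known for a run of pyrimidines at the first transcribed base, the 5′ terminal oligopyrimidine tract, which ties their translation to growth signalling. RefSeq windows (GRCm38.p6) around the annotated starts of 4 of these genes are shown because these genes lead the comparison. They were chosen after their values were seen. Each runs from 40 bases before the start, in lower case, through the 20 bases from RefSeq's start, in capitals, on the gene's strand. The RefSeq start lies 30 bases upstream of the outermost GENCODE M21 start of Rpl37a, and 180, 2 and 56 bases downstream of that of Rpl39, Rps21 and Rpl38.
Rpl37a, chr1:72711220-72711279, plus strand: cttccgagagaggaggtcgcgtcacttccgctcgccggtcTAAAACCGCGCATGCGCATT
Rpl39, chrX:37085203-37085262, minus strand: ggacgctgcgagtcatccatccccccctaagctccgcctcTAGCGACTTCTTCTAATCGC
Rps21, chr2:180257339-180257398, plus strand: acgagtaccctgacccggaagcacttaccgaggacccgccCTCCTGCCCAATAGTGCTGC
Rpl38, chr11:114668540-114668599, plus strand: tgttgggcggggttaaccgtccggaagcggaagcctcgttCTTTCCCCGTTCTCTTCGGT
A C at RefSeq's start followed by 4 bases that are each C or T, read on the gene's strand, stood in a window of Rps21 and of Rpl38. These were 2 of the 6 leading ribosomal protein genes with a window (33.3%). The windows of Rps19 and Rpl11 and a second window of Rps21, which are not shown, lacked the run. The run was in 13 of the 56 tested ribosomal protein genes with a window (23.2%) and in 813 of all 27025 genes with one (3.01%). Since the annotations place the starts differently, the absence of the run from a window says nothing of the gene.

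**Figure D1:**
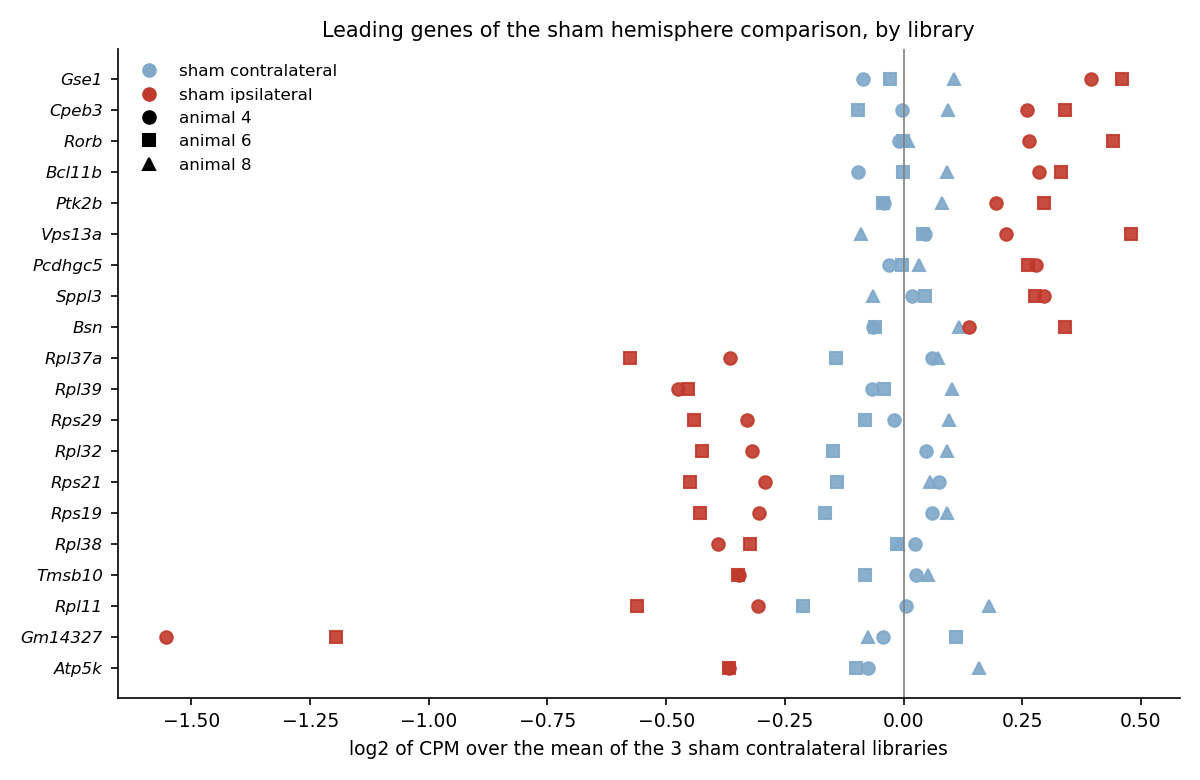
Log2 of the CPM of each sham library over the mean of the 3 sham contralateral libraries (x axis), for 20 leading genes (y axis). Red symbols are ipsilateral and blue contralateral libraries, and the symbol gives the animal. In every gene shown both red symbols lie on one side of all blue ones. Of these genes only Rpl37a passed the test.

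The cytoplasmic ribosomal proteins moved little but nearly all in one direction. Of the 80 genes of the family in the table, 77 were tested, 1 was called, and 73 had a fold change below 0. Their median log2 fold change was -0.20, against -0.004 over all genes tested. In 50 of the 77 the unadjusted p was under 0.05 on the lower side (3.34% of all genes). Both ipsilateral libraries lay below all contralateral ones in 51 of the 77 (11% of all genes), and the ipsilateral hemisphere was lower within both animals in 67 (28.8% of all genes). Both large and small subunit genes were among them. Rps10 had a fold change of -0.28, Rps18 -0.27 and Rpl34 -0.32, while the more abundant Rpl3 and Rpl4, at 440 to 466 and 414 to 428 CPM contralaterally, had -0.07 and -0.06. Of the 4 members above 0, Rps4l did not overlap between the groups, at 12.2 to 14.0 against 14.8 and 16.5 CPM (0.25, adjusted p = 0.856). Many genes of this family have near-identical processed copies elsewhere in the genome, among which RSEM divides reads by its model, so single members are less certain than the family sum.

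Summed over the family, ribosomal protein genes took 1.20, 1.11 and 1.19% of all counts contralaterally, and 1.07 and 0.96% ipsilaterally. The ipsilateral share was the lower one within animal 4 and within animal 6, and the 2 ipsilateral libraries were the lowest of all 13. The group means were 1.01 ± 0.074% and 1.17 ± 0.048% (SD, n = 2 and 3), a ratio of 0.869. A two-sided exact permutation test gave p = 0.2, the smallest that 2 against 3 libraries allow. The CCI libraries held 1.22 to 1.31% contralaterally and 1.27 to 1.36% ipsilaterally. The family's median hemisphere difference in CCI mice was 0.02 on the log2 scale. Between the CCI hemispheres 4 members were called higher (12.8% of all genes) and 2 lower (8.9%). The 2 lower ones were Rps21 (-0.26) and Rpl38 (-0.21). In the test of unequal hemisphere differences these 2 were not called (edgeR adjusted p = 0.564 and 0.43). That test called 12 of the 77 genes, all higher in CCI (4.84% of all genes in that direction), among them Rpl37a, Rpl39, Rpl11, Rpl32, Rps19, Rps20, Rps9, Rpl36a, Rpl18, Rps4x and Rplp0. Without animal 8 the family median was -0.18, with 43 members at an unadjusted p under 0.05 on the lower side. Without the ipsilateral library of animal 6 the median was -0.15, with 20 such members.

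**Figure D2:**
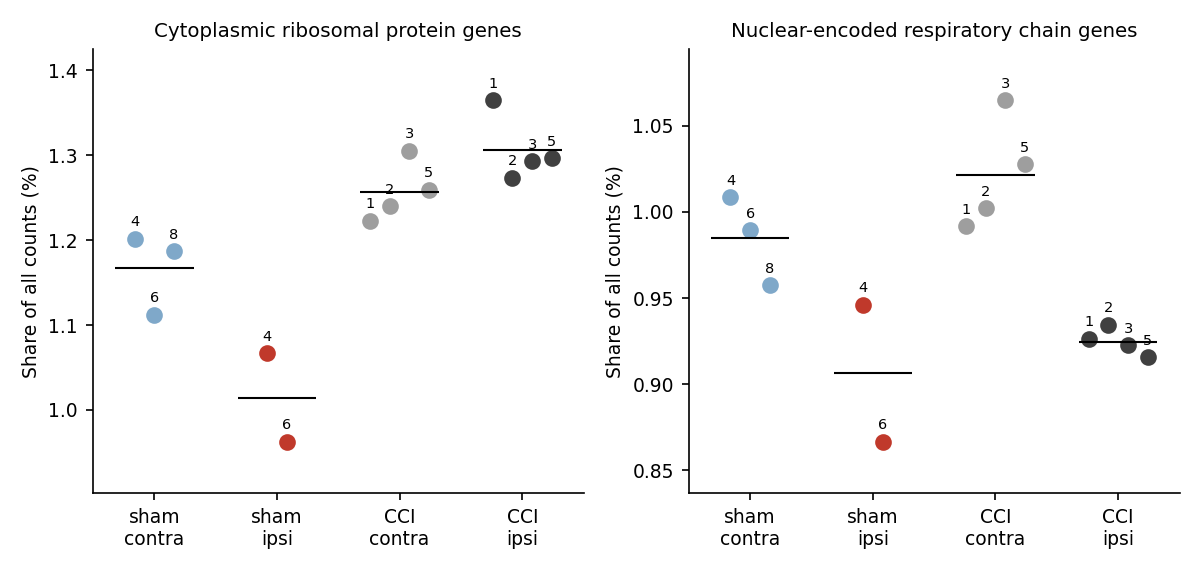
Share of all counts, in percent, taken by cytoplasmic ribosomal protein genes (left) and by nuclear-encoded respiratory chain genes (right) in each library. Points are libraries labelled by animal and lines are group means, and the y axes do not start at 0. The 2 sham ipsilateral libraries, at 1.07 and 0.96%, are below all others in the left panel.

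**Figure D3:**
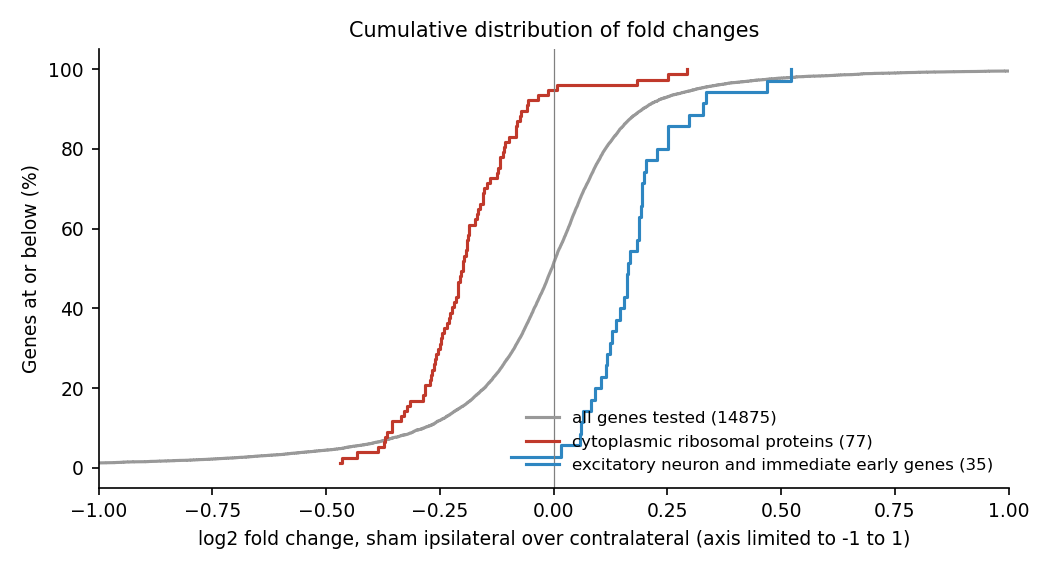
Percent of genes at or below each log2 fold change of sham ipsilateral over contralateral, for all 14875 genes tested, the 77 ribosomal protein genes and 35 excitatory neuron and immediate early genes. The ribosomal curve lies to the left of all genes, with a median of -0.20, and the neuronal curve to the right.

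Nuclear genes of the mitochondrial respiratory chain, a list added after the leading genes were seen, had a median fold change of -0.13 over 79 tested members. None was called, 25 had an unadjusted p under 0.05 on the lower side (3.34% of all genes), 35 did not overlap between the groups on that side (11%), and 61 were lower within both animals (28.8%). The median was -0.07 without the ipsilateral library of animal 6 and -0.03 with the transcript length trend, described next, removed. Atp5e, the epsilon subunit of ATP synthase, had 61.0 to 68.7 CPM contralaterally against 54.6 and 45.4 CPM (-0.36, adjusted p = 0.463), and Ndufa2, of complex I, 46.3 to 53.5 against 42.7 and 36.4 CPM (-0.34, adjusted p = 0.568). In CCI mice the list's median was -0.18, with 42 members called lower (8.9% of all genes). In the test of unequal differences 1 member was called (7.83% of all genes). The 75 mitochondrial ribosomal proteins, also added later, had a median of -0.08 with none called, and of -0.01 with that trend removed. The 15 tested genes of the mitochondrial genome had a median of 0.01 and none called, but the libraries went opposite ways: the median was 0.10 without the ipsilateral library of animal 4 and -0.11 without that of animal 6. In the fit of all libraries mt-Atp6 had a fold change of 0.06 and mt-Atp8 of -0.09. Mitochondrial genome transcripts took 8.10 and 9.03% of counts ipsilaterally and 8.20 to 8.84% contralaterally, which overlap.

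Small proteins have short mRNAs, and the hemisphere difference followed transcript length. Over the 14808 tested genes with an annotated length, put in 10 bins of equal size by length, the median log2 fold change was higher at every step, from -0.11 in the bin with the shortest transcripts (151 to 1375 bases) to 0.05 in the bin with the longest (6610 bases and more). In the shortest bin it was -0.09 in animal 4 alone and -0.12 in animal 6 alone, and in the longest 0.04 and 0.06. Without the ribosomal protein and respiratory chain genes the shortest bin still had a median of -0.10. In CCI mice the same bins had -0.04 and -0.004. Across genes, which are not independent replicates, Spearman's correlation of length and fold change was 0.21 in sham and 0.04 in CCI mice. The 54 ribosomal protein genes in the shortest bin had a median of -0.21, below the -0.11 of that bin as a whole, and the 23 others had -0.16. With a trend on transcript length removed from each library, an alternative chosen after seeing the data, no gene was called, 779 had an unadjusted p under 0.05, Rpl37a had -0.34 (edgeR adjusted p = 0.39) and the family median was -0.11. The part of transcript length in the ribosomal protein difference was not tested further.

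**Figure D4:**
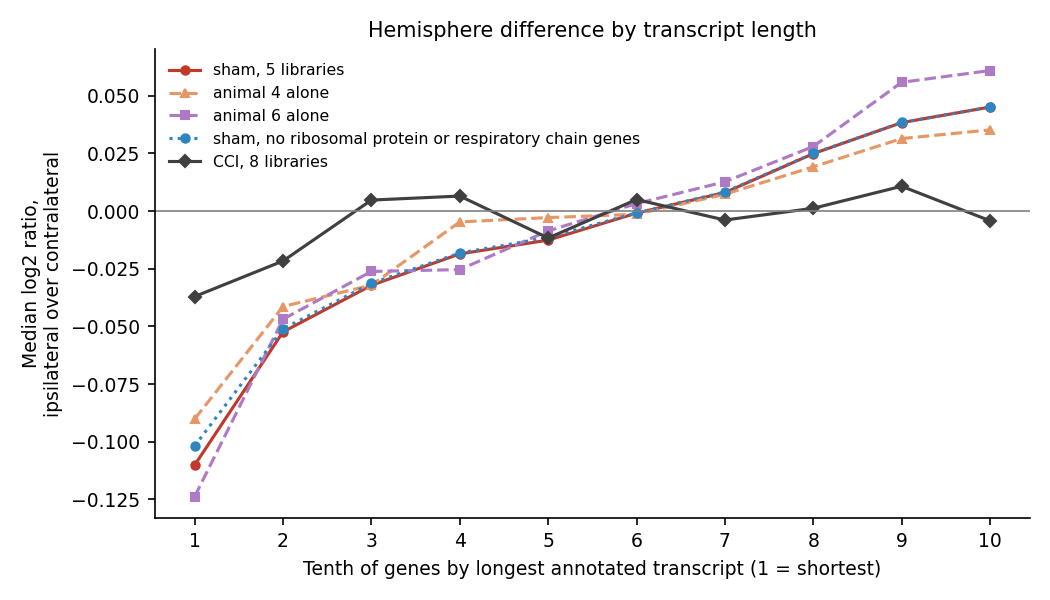
Median log2 ratio of ipsilateral over contralateral (y axis) in 10 equal bins of genes ordered by the longest annotated transcript (x axis, 1 is the shortest). Red is the sham comparison of 5 libraries, dashed lines are animals 4 and 6 alone, the dotted line leaves out ribosomal protein and respiratory chain genes, and dark grey is the CCI comparison. The red line rises from -0.11 to 0.05, that of animal 4 from -0.09 to 0.04 and that of animal 6 from -0.12 to 0.06. The dotted line rises from -0.10 to 0.05, and the CCI line stays between -0.04 and 0.01.

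On the higher side no gene was called, and the 12 genes of smallest p included 2 transcription factors of forebrain neurons. Rorb, a nuclear receptor that marks layer 4 of the cortex, had 42.5 to 43 CPM contralaterally and 51.3 and 58.0 CPM ipsilaterally (0.36 ± 0.089, adjusted p = 0.325). Bcl11b, a transcription factor of deep-layer projection neurons and striatal neurons, had 82.7, 88.3 and 94.3 CPM against 107.8 and 111.3 CPM (0.31 ± 0.079, adjusted p = 0.369). In both the groups did not overlap, and in CCI mice their hemisphere differences were -0.12 and -0.15. Those differences were lower than the sham ones in the test of unequal differences (edgeR adjusted p = 0.00882 and 0.0042). Both genes were named for their sham values, which also enter that test, so it gives no independent support.

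The smallest p among well-measured genes on this side belonged to Gse1, a chromatin-associated protein, at 50.3, 52.4 and 57.5 CPM against 70.3 and 73.5 CPM (0.43 ± 0.098, adjusted p = 0.187). Cpeb3, which binds the 3′ ends of mRNAs and controls their translation in neurons, had 73.7 to 84.0 CPM against 94.4 and 99.6 CPM (0.30, adjusted p = 0.325). Ptk2b, a calcium-responsive tyrosine kinase, had 355.8 to 387.6 CPM against 419.3 and 449.9 CPM (0.25, adjusted p = 0.402). The groups were apart in each. Vps13a, a lipid transfer protein (0.36), Sppl3, an intramembrane protease (0.29), Bsn, the presynaptic scaffold bassoon (0.24), and Pcdhgc5, a neuronal adhesion protein (0.27), had adjusted p-values of 0.426 to 0.568. Pcdhgc5 shares its last exons with the other genes of its cluster, so its reads are divided by the model.

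Most genes of the neuronal lists had higher values on the operated side of sham mice, with no member called in any list. Of the 14 excitatory neuron genes all had a fold change above 0, with a median of 0.16, 7 did not overlap on the higher side (10.1% of all genes), 13 were higher within both animals (27.7%) and 5 had an unadjusted p under 0.05 (2.76%). Slc17a7, the vesicular glutamate transporter of cortex and hippocampus, had 692.6 to 780.4 CPM contralaterally and 825.5 and 844.2 ipsilaterally (0.20, adjusted p = 0.668), and Camk2a, the synaptic kinase, 0.14. The 14 inhibitory neuron genes had a median of 0.08, and of 0.01 without the ipsilateral library of animal 4, with Gad1 at 0.05 and Slc32a1 at 0.12. Without animal 8 the excitatory median was 0.21, and 12 of 14 genes did not overlap on the higher side (2556 of all 14853 genes tested then). Without the ipsilateral library of animal 6 the excitatory median was 0.09. In CCI mice the excitatory list had a median of -0.23 with 9 members called lower (8.9% of all genes), and 10 members were lower in the test of unequal differences (2.99% of all genes).

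By region, genes of the upper cortical layers had a median of 0.14, with 6 of 10 not overlapping on the higher side (10.1% of all genes), among them Cux1 (0.21); Cux2 had 0.17 with overlap. Striatal genes had a median of 0.15, with 7 of 14 not overlapping on that side (10.1%), and 0.09 without the ipsilateral library of animal 4. Drd1, the dopamine receptor of direct-pathway neurons, had 46.5 to 54.0 CPM against 57.0 and 63.4 (0.26, adjusted p = 0.699), and Pde10a 262.9 to 329.6 against 348.7 and 378.0 CPM (0.27, adjusted p = 0.699). Drd2, of the indirect pathway, had 0.11 and overlapped. The lower cortical layers had a median of 0.09, which was -0.008 without the ipsilateral library of animal 6, with Fezf2 at 0.30 and Foxp2 at 0.16, and the hippocampus 0.09, with Prox1 at 0.12 and Fibcd1 at 0.06. The cerebellum had 0.03, with Cbln1 at -0.39 and Cbln3 at -1.10. Cbln3 had 4, 6 and 11 counts contralaterally and 2 and 4 ipsilaterally. No member of these lists was called.

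Genes linked to neuronal activity followed. Of 21 immediate early genes, 20 had a fold change above 0, the median was 0.17 and 8 did not overlap on the higher side (10.1% of all genes), with none called. Egr1, an activity-induced transcription factor, had 229.2, 237.4 and 222.0 CPM contralaterally and 279.8 and 299.1 ipsilaterally (0.34, adjusted p = 0.849 with 4 groups sharing the spread). Its groups were apart, and in the fit of the 5 sham libraries alone it was among 22 genes called. Egr2 had 7.72 to 11.3 against 14.98 and 13.6 CPM (0.52, adjusted p = 0.727), whereas Fos had 0.16, Fosb 0.23 and Arc 0.17, each with overlapping groups. In CCI mice the list's median was -0.60 with 16 members called lower (8.9% of all genes), and 11 were lower in the test of unequal differences (2.99%), among them Fos (-0.92, adjusted p = 0.00137). Of 16 potassium, sodium and calcium channel genes all had a fold change above 0 (median 0.12, 6 not overlapping against 10.1% of all genes), with Kcna1 at 0.22 and Kcna2 at 0.05. Of 23 synaptic genes 22 were above 0 (median 0.07), with Snap25 at 0.09 and Syt1, the vesicle calcium sensor, at 0.19. Among these 23, 7 did not overlap on the higher side (10.1% of all genes) and 1 on the lower side (11%). The channel median was 0.06 without the ipsilateral library of animal 6 and 0.18 without that of animal 4, and the synaptic one 0.06 and 0.10.

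**Figure D5:**
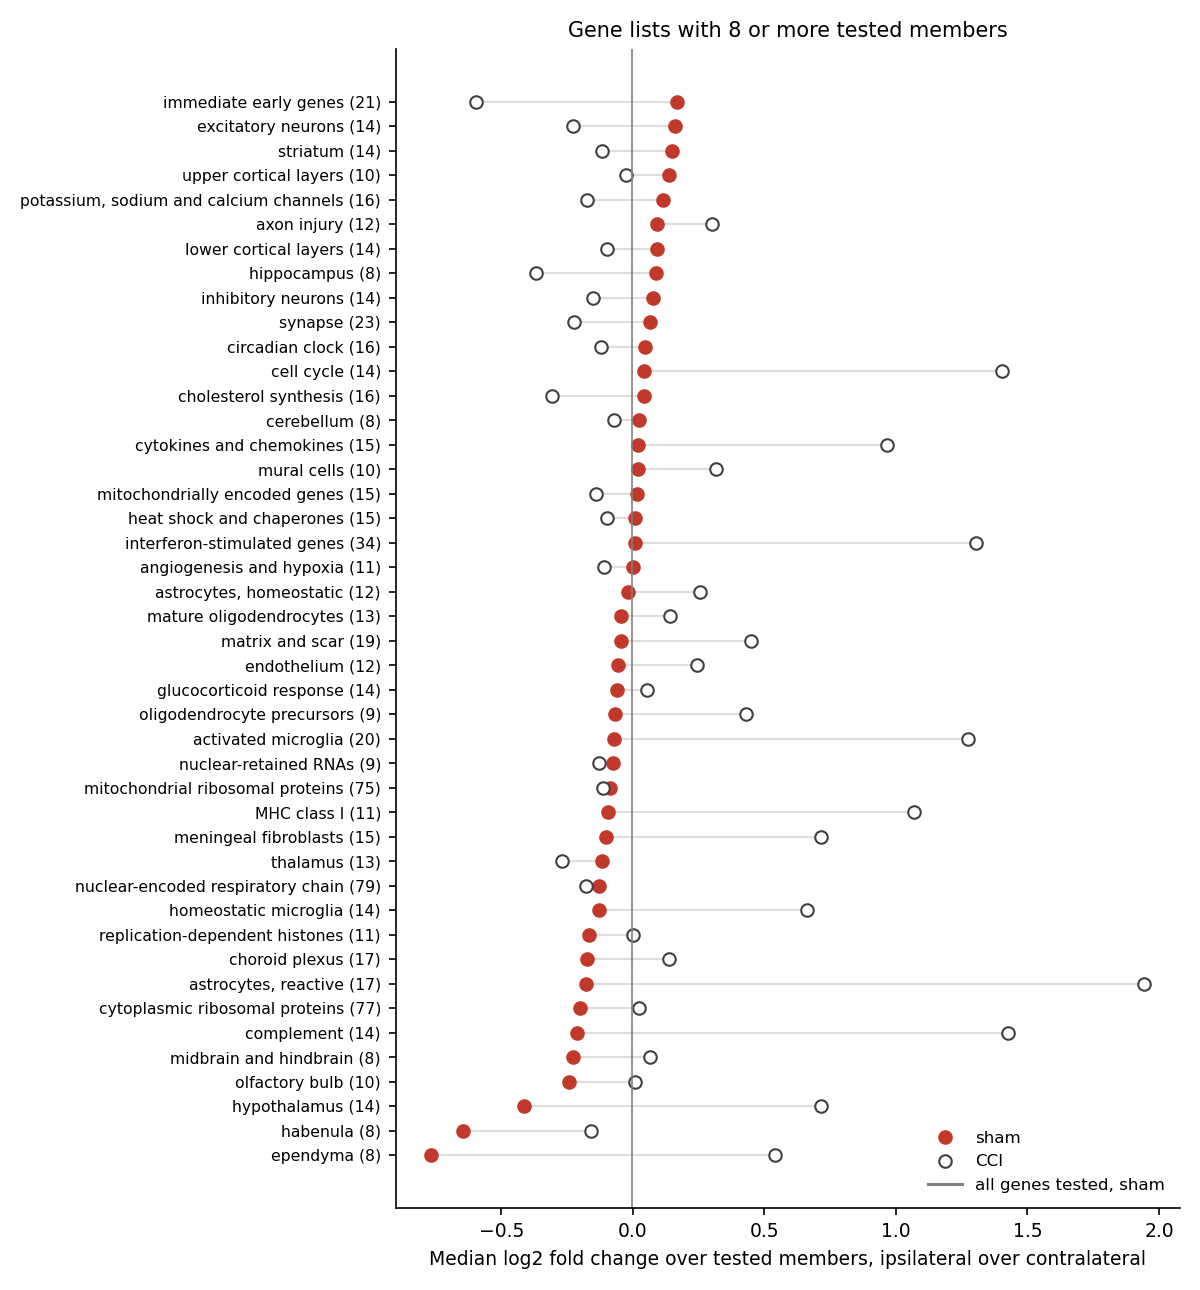
Median log2 fold change of ipsilateral over contralateral over the tested members of each gene list with 8 or more of them (x axis), with the number of tested members beside each list (y axis). Filled symbols are sham, open symbols are CCI, and the line is the median of all genes in sham mice. The sham medians run from -0.77 (ependyma) to 0.17 (immediate early genes), and the CCI medians reach 1.94 (reactive astrocytes).

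The lists with the lowest medians held genes of the ependyma, the habenula, neutrophils and the hypothalamus. All 8 tested genes of ependyma, the ciliated lining of the ventricles, had fold changes below 0, with a median of -0.77, 4 not overlapping on the lower side (11% of all genes) and 4 at an unadjusted p under 0.05 (3.34%). Ccdc153, a gene of motile cilia, had 4.01, 3.85 and 2.68 CPM contralaterally and 1.55 and 1.36 ipsilaterally (-1.27 ± 0.38, adjusted p = 0.568), and Foxj1, the regulator of motile cilia, 8.94 to 11.4 against 9.82 and 8.00 CPM (-0.16), which overlap. These genes had few counts, and over the alternatives the list's median ran from -0.87 to -0.17. Summed over the list, the contralateral libraries held 31.2, 26.5 and 31.2 CPM and the ipsilateral ones 21.4 and 19.6.

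The hypothalamus list had a median of -0.41, with 6 of 14 not overlapping on the lower side (11% of all genes) and 11 lower within both animals (28.8%). It was -0.18 without the ipsilateral library of animal 6, -0.66 without that of animal 4 and -0.47 without animal 8. Oxt, the oxytocin gene, had 10.8, 9.10 and 7.14 CPM contralaterally and 6.89 and 1.36 ipsilaterally (-1.17 ± 0.77, adjusted p = 0.902), Avp, the vasopressin gene, -0.81, and Nnat 202.1 to 226.9 against 180.5 and 168.0 CPM (-0.29, adjusted p = 0.638). The habenula list had a median of -0.65, with Gpr151 at -0.68 and Tac2 at -0.22, but this rested on 1 library: it was -0.0009 without the ipsilateral library of animal 6 and -1.36 without that of animal 4. The thalamus list had -0.12, and -0.02 without animal 8, with Prkcd at 0.0001 and Tcf7l2 at -0.11. For the olfactory bulb the median was -0.24, but -0.008 without the ipsilateral library of animal 6 and -0.03 without the contralateral one of animal 4. Eomes had -1.51, on 9, 4 and 6 counts contralaterally and 3 and 1 ipsilaterally, and Cdhr1 had 0.24. For midbrain and hindbrain the median was -0.23, with Slc6a3 at 0.16 and Th at -0.07. The choroid plexus list had -0.17, with its transport protein gene Ttr at 505.1, 611.6 and 688.3 against 538.1 and 438.5 CPM (-0.30, adjusted p = 0.83) and Folr1 at 0.20, and its median was -0.06 without the ipsilateral library of animal 6. Prl and Gh, pituitary hormone genes, varied by library, at 0.59 to 1.48 and 8.47 to 19.7 CPM contralaterally against 0.17 and 1.81, and 2.41 and 16.0, ipsilaterally. None of these genes was called. In whole hemispheres, fewer cells of a type and less RNA per cell cannot be told apart, and the part of dissection in these values was not tested.

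No gene of the glial lists was called between the sham hemispheres in the fit of all libraries. All 14 homeostatic microglia genes had fold changes below 0 (median -0.13), but none was apart between the groups: their sum was 330.5, 359.4 and 485.7 CPM contralaterally and 368.0 and 348.6 ipsilaterally, and without animal 8, the highest of the 5, the median was 0.02. Tmem119 had a fold change of -0.01 and P2ry12 of -0.03. Activated microglia genes had a median of -0.07, with Cd68, a lysosomal protein, at -0.10 and Trem2 at 0.04, against a CCI median of 1.27 with all 20 called higher (12.8% of all genes). Their sham fold changes ran from -1.15 to 3.85, with 14 of 20 below 0. On the higher side 1 member did not overlap (10.1% of all genes), and on the lower side 1 (11%). Under limma on log2(TPM + 0.1) 1 member was called higher. Reactive astrocyte genes had a median of -0.18 with 13 of 17 below 0. Gfap had 191.5, 159.3 and 223.9 against 167.4 and 195.0 CPM (-0.08 ± 0.31, edgeR adjusted p = 0.991). Serpina3n, an acute-phase inhibitor, had a fold change of 0.01. The CCI median of the list was 1.94, with 16 of 17 called higher (12.8% of all genes). Homeostatic astrocyte genes had -0.02, with Aqp4 at -0.02 and Slc1a2 at 0.06. All 13 mature oligodendrocyte genes were below 0 (median -0.04, 5 not overlapping on the lower side against 11% of all genes), with Mbp at -0.03. Oligodendrocyte precursors had -0.07, with Pdgfra at 0.01 and Cspg4 at -0.03.

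No gene of blood, vessel or border cells was called either. Ccr2, the receptor that recruits monocytes, had 4 to 4.11 counts in each contralateral library and 0 and 2 ipsilaterally, which do not overlap (-1.80, adjusted p = 0.815), and Lyz2, of macrophages, 6.78 to 11.2 against 7.40 and 8.15 CPM (-0.29). Cd163 (-0.13) and F13a1 (-0.69) of border macrophages, S100a8 (-0.94) and S100a9 (-0.07) of neutrophils, Cd4 (-0.01) and Trbc2 (-0.01) of T cells, Ighm (0.02) of B cells and the globins Hba-a1 (-0.08) and Hba-a2 (-0.005) did not pass the test. The border macrophage median of -0.17 was 0.17 without animal 8. The neutrophil median of -0.51 rested on 2 tested genes and the T cell list on 3. S100a8 had 4, 3 and 12 counts contralaterally and 6 and 0 ipsilaterally. The red blood cell median of -0.005 was 0.67 without the ipsilateral library of animal 6 and -0.69 without that of animal 4. Endothelium had a median of -0.06, with Cldn5 at -0.04 and Pecam1 at -0.10, mural cells 0.02, with Pdgfrb at 0.11 and Kcnj8 at 0.22, and meningeal fibroblasts -0.10 with 11 of 15 below 0, and -0.001 without animal 8, with Dcn at -0.34 and Lum at -0.63. Of 8 skeletal muscle genes, a sign of scalp or jaw muscle in a sample, 2 were tested, at 0.89 to 5.65 CPM. Acta1 had -0.12 and overlapped. Atp2a1 had 0.89, 1.70 and 0.89 CPM contralaterally and 2.24 and 2.26 ipsilaterally, which do not overlap (0.95, edgeR adjusted p = 0.832).

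Injury and inflammation programmes showed no call on the sham side. Of 34 interferon-stimulated genes 18 were above 0 and 16 below, with a median of 0.007, against 1.30 in CCI mice with 33 called higher (12.8% of all genes). Isg15 had 1.78 to 2.38 CPM contralaterally against 1.21 and 1.81 ipsilaterally (-0.43, adjusted p = 0.935), and Ifit1 -0.29. Complement genes had a median of -0.21, with C1qa at 0.006, C1qb at -0.18 and 3 of 14 not overlapping on the lower side (11% of all genes), against 1.42 in CCI mice. The sham median was -0.08 without animal 8. Cytokines and chemokines had 0.02, with Il1a at -0.57 and Il1r1 at 0.06, MHC class I -0.10, with B2m at 0.04 and H2-K1 at 0.09, and MHC class II -0.11, with Cd74 at 0.34 and H2-Aa at -0.72. Matrix and scar genes had -0.05, with Col4a1 at -0.08 and Col4a2 at -0.06, and cell cycle genes 0.04, with Top2a at -0.62 and Cdk1 at 1.16. Cdk1 had 4, 1 and 2 counts contralaterally and 4 and 6 ipsilaterally. Of the axon injury list, with a median of 0.09, Atf3 had 0.56 and Sprr1a had 3 counts in the ipsilateral library of animal 4 and 0 in the other 4 sham libraries.

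No gene of the stress and metabolic lists was called. Angiogenesis and hypoxia genes had a median of 0.0004, with Vegfa at 0.0004 and Adm at 0.007, and glucocorticoid response genes -0.06, with Fkbp5 at 0.12 and Sgk1 at 0.02. Heat shock genes had 0.008, with Hspa1a at 0.51 and Hspa1b at 0.38, and clock genes 0.05, with Dbp at 0.08 and Per1 at 0.04. Cholesterol synthesis had 0.04, with Hmgcs1 at 0.008, nuclear-retained RNAs -0.08, with Malat1 at -0.08 and Neat1 at -0.16, and replication-dependent histones -0.17 over 11 of 70 genes tested, 8 of them below 0, with Hist1h1c at 0.05 and Hist1h2bc at -0.17.

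Among the leading genes 4 rested on few counts or on gene copies. Hist2h2aa1, a histone H2A gene, had 0 counts in all 3 contralateral libraries and 19.1 and 11.7 ipsilaterally, a level at least 16.6-fold higher when the contralateral group is set to 3 counts in sum (edgeR adjusted p = 0.106). Its near-identical copy Hist2h2aa2 had 29.97, 18.7 and 8.17 counts contralaterally and 0 and 4.28 ipsilaterally, and the sum of both was 29.97, 18.7 and 8.17 against 19.1 and 16.0, which overlap. Gm12070, a processed pseudogene, had 14.9, 10.0 and 8.58 counts against 0 and 0, at least 7.06-fold lower (adjusted p = 0.153). Gm10702, a pseudogene, had 0, 3.93 and 0 counts against 11.2 and 9.62 (adjusted p = 0.241), and Gm14327, a protein-coding gene model, 43.2, 46.5 and 41.5 counts against 13.2 and 19.5 (adjusted p = 0.325).

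The authors' deposited table also holds a comparison of the sham hemispheres. No gene was called higher there and 1 lower in the authors' deposited table, with 449 of 27053 at an unadjusted p under 0.05. The call in the authors' deposited table was Lrrc17, a secreted leucine-rich repeat protein, at -2.60 (adjusted p = 0.0063). In the counts Lrrc17 had 143, 150 and 224 contralaterally and 33 and 42 ipsilaterally, which do not overlap, and the fit of all 13 libraries gave -2.10 ± 0.56 (edgeR adjusted p = 0.638) and -1.49 in CCI mice. The fit of the 5 sham libraries alone called it. For genes averaging 50 counts or more, the estimates in the authors' deposited table lay within a median of 0.000869 of the values computed here for the CCI hemispheres but 0.0469 for the sham hemispheres. There, 29 genes stood over 0.5 higher in the authors' deposited table and 6 over 0.5 lower. Of the 29, 18 were called higher between the CCI hemispheres (12.8% of all genes) and 0 lower (8.9%). Gfap was 0.94 in the authors' deposited table (unadjusted p = 1e-04, adjusted p = 0.677) against -0.08 here, Top2a 0.45 against -0.62, Gpnmb 0.85 against 0.12 and Gpr17 0.68 against -0.07. Serpina3n was 0.69 in the authors' deposited table against 0.01 here, S100a6 0.47 against -0.23 and Cd44 0.78 against 0.19. These genes were chosen after their values were seen. The sources used here do not give which libraries entered the authors' fit.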

How the data were processed

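Whole brain hemispheres were sequenced after poly(A) selection with a stranded kit, per the labels' protocols. The authors deposited expected counts and TPM values per gene, made with RSEM on GRCm38/mm10 per the submitters' processing notes, and a table with log2 fold changes, p-values and adjusted p-values from DESeq2. Its fold change columns, also deposited by the authors, hold a signed score (the negative reciprocal where lower) and were not used. No source used here gives versions or the strand setting. Expected counts of 43411 genes, of which 9.76% were not whole, were rounded. edgeR 4.0.16 in R 4.3.3 (filterByExpr, TMM, robust quasi-likelihood test, 4 group means over 13 libraries, Benjamini-Hochberg adjustment) tested 14875 genes. CPM values use TMM-scaled totals. limma 3.58.1, DESeq2 1.42.0, other filters, TPM values, an animal block and the omission of each library were alternatives, and the calculations were tested on simulated data. Hemispheres of one animal share its number in the labels, which pairs them. The correlation of their deviations from the group means was 0.04 and 0.06 in animals 4 and 6. The sham ipsilateral deviations of these animals mirror each other, so these values are not independent. Over all libraries limma voom estimated a correlation of 0.16 between libraries of an animal.

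The 51 gene lists (828 genes, 662 tested) and the comparison were chosen with earlier results of these data known. Named genes were up to 12 per direction by called fold change and then by smallest p, every called list member, and otherwise the first 2 tested members of each list. Others named were chosen after their values were seen. Some genes under these rules are not reported here. Positions are from GENCODE M21, and sequences from RefSeq. Replicate pairs differed by more than sampling noise (chi-square per degree of freedom 2.28 to 2.90), so none was counted as 1 sample. Counting precision follows from 5604856 to 7955076 counts per library.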

Additional observations from a re-analysis of the deposited data

Results flagged for a closer look

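For 46 of the 125 named genes the hemisphere difference was unequal in CCI and sham mice by edgeR's quasi-likelihood test at an adjusted p under 0.05. Of all 14875 genes tested it was unequal for 1165 (7.83%). The leading genes were named for sham values that enter this test, and the lists were chosen with earlier results known. The named genes are therefore not a neutral set to compare with all genes. The values below are the CCI difference minus the sham difference on the log2 scale, and 31 were above 0. Among genes of reactive glia, macrophages, complement, interferon and antigen presentation these were Lyz2 (4.52), Gpnmb (4.21), Ccr2 (3.53), F13a1 (3.10), H2-Aa (2.87), Cd68 (2.35), Isg15 (2.21), Serpina3n (2.06), Cd74 (1.88), Ifit1 (1.74), C1qb (1.58), Gfap (1.497), C1qa (1.45), Aqp4 (1.13) and B2m (0.95). The ribosomal protein genes were Rpl37a (0.46), Rpl32 (0.44), Rpl11 (0.39), Rps19 (0.39) and Rpl39 (0.34), whose sham ipsilateral values were low. Their CCI hemisphere differences were -0.01, 0.07, -0.04, 0.02 and -0.13, in this order. The others above 0 were Gm12070 (6.40), Atf3 (3.07), Top2a (2.94), Lum (2.22), S100a6 (1.63), Ccdc153 (1.61), Dcn (1.15), Neat1 (0.80), Col4a1 (0.78), Pecam1 (0.66) and Tmsb10 (0.48).

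The 15 values below 0 were, among members of the neuronal, cortical, activity, synapse and channel lists, Fezf2 (-0.95), Fos (-0.92), Snap25 (-0.48), Rorb (-0.47), Bcl11b (-0.46), Syt1 (-0.41), Camk2a (-0.34), Slc17a7 (-0.30) and Kcna2 (-0.29). The others were Hist2h2aa1 (-7.68), Gm10702 (-2.92), Vps13a (-0.57), Malat1 (-0.34), Ptk2b (-0.34) and Cpeb3 (-0.30). Hist2h2aa1 and Gm12070 had 0 counts in 1 sham group, so their fitted differences depend on the prior count and give no size. Of 22 groups of values examined, all from CCI libraries, 0 held a library far from the others. The sham groups had too few libraries for this check, so no sham library was examined in it.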

How the results depend on the processing

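The number of genes called between the sham hemispheres was 1 and depended on the fit. It was 4 by DESeq2's Wald test (1 higher, 3 lower), 26 with no filter on low counts (9 and 17), 2 with a stricter filter (both lower), 22 in a fit of the 5 sham libraries alone (6 and 16), and 3 without the CCI ipsilateral group (1 and 2). The replicate block in edgeR gave 5, all lower, and the block in limma voom 1. Limma on log2(TPM + 1) gave 0, with 991 genes at an unadjusted p under 0.05. A pseudocount of 0.1 gave 3 (1 and 2), and log2(TPM + 1) with no filter 3 (1 and 2). edgeR without robust estimation gave 0, with 916 genes at an unadjusted p under 0.05, and the removal of the transcript length trend 0. The called members of gene lists, 1 in the report, numbered 4, 9, 2, 8 and 3 in the first 5 of these settings, 0 on log2(TPM + 1) with or without the filter, 2 with the pseudocount of 0.1, and 0 without robust estimation or without the length trend. The cause of these changes was not tested. With 1 library left out, 0 to 8 genes were called, 0 to 1 higher and 0 to 7 lower, 0 to 7 list members were called, and the difference between CCI and sham hemispheres was called for 393 to 1457 genes. The animal block changed no other count by over 1.5 times. Rpl37a stayed below 0 throughout, at -0.58 to -0.34 with adjusted p of 7.99e-05 to 0.943. The ribosomal share ratio of 0.869 was 0.877 on TPM and 0.877 in the 2 animals with both hemispheres. Of 3415 values of named genes under alternatives 3248 kept their direction. Under the replicate block with animal as a fixed term in edgeR the reversed values were Tmem119 0.17, P2ry12 0.14, Cd163 0.28, S100a9 0.55, Cd4 0.0709, Trbc2 0.0693, Ighm -0.0403, Hba-a2 0.0512, Aqp4 0.0548, Gfap 0.0505, Cspg4 0.20, Cldn5 0.0901, Col4a2 0.0305, Vegfa -0.00159, Adm -0.0366, Hmgcs1 -0.0442 and Gpr17 0.22. With the replicate block with animal as a random term in limma voom the reversed values were Tmem119 0.0147, P2ry12 0.00264, Cd163 0.10, S100a9 0.34, Cd4 0.00239, Ighm -0.00842, Cspg4 0.0314, Adm -0.13 and Gpr17 0.0144. Under limma on log2(TPM + 1) the reversed values were Tmem119 0.0155, Trem2 -0.0875, S100a9 0.18, Cspg4 0.00441, Prkcd -0.043, Th 0.0034, Top2a 0.21, Vegfa -0.0845, Adm -0.095 and Sgk1 -0.0133. With limma on log2(TPM + 0.1) the reversed values were Tmem119 0.0166, Trem2 -0.0913, Cd163 0.021, S100a9 0.30, Cspg4 0.00973, Prkcd -0.0436, Th 0.00694, Top2a 0.34, Vegfa -0.0853, Adm -0.16 and Sgk1 -0.0134. Under limma on log2(TPM + 1), no filter the reversed values were Tmem119 0.0155, Trem2 -0.0875, S100a9 0.18, Cspg4 0.00441, Prkcd -0.043, Th 0.0034, Top2a 0.21, Vegfa -0.0845, Adm -0.095 and Sgk1 -0.0133. With transcript length trend removed the reversed values were Tmem119 0.0272, P2ry12 0.00453, S100a9 0.0763, Cd4 0.00896, Trbc2 0.11, Hba-a1 0.0334, Hba-a2 0.13, Pdgfra -0.0146, Cldn5 0.0327, Prl 0.0876 and mt-Atp8 0.14. Under limma voom the reversed values were Cd163 0.0447, S100a9 0.26, Prkcd -0.00639 and Adm -0.13. With DESeq2 size factors in edgeR the reversed values were Hba-a2 0.000234. Under DESeq2 Wald test the reversed values were Hba-a2 0.00983. With stricter filter on low counts the reversed values were Prkcd -0.00407 and Vegfa -0.00381. With 1 library left out, the genes that changed direction ranged as follows: Adm -0.87 to 0.51, Aqp4 -0.0658 to 0.0545, B2m -0.0339 to 0.11, C1qa -0.0866 to 0.10, Cd163 -0.49 to 0.27, Cd44 -0.56 to 0.63, Cd4 -0.0846 to 0.0694, Cd68 -0.29 to 0.10, Cd74 -0.0944 to 0.70, Cldn5 -0.20 to 0.12, Col4a1 -0.17 to 0.0054, Col4a2 -0.10 to 0.0286, Cspg4 -0.19 to 0.20, Dbp -0.0845 to 0.23, Fibcd1 -0.0623 to 0.18, Folr1 -0.20 to 0.53, Gfap -0.20 to 0.0472, Gh -2.41 to 0.31, Gpnmb -0.32 to 0.42, Gpr17 -0.25 to 0.22, Hba-a1 -1.51 to 0.67, Hba-a2 -0.41 to 0.33, Hist1h1c -0.0188 to 0.13, Hmgcs1 -0.0727 to 0.0836, Ighm -0.21 to 0.23, Il1a -1.70 to 0.00461, Il1r1 -0.011 to 0.13, Kcna2 -0.11 to 0.19, Kcnj8 -0.039 to 0.46, Malat1 -0.20 to 0.0343, P2ry12 -0.22 to 0.14, Pdgfra -0.0855 to 0.082, Per1 -0.0437 to 0.11, Prkcd -0.15 to 0.15, Prl -2.49 to 0.77, S100a8 -5.77 to 0.12, S100a9 -0.53 to 0.49, Serpina3n -0.0399 to 0.0552, Sgk1 -0.0678 to 0.094, Slc1a2 -0.031 to 0.16, Sprr1a 0.00e+00 to 4.90, Tac2 -0.80 to 0.21, Th -0.25 to 0.28, Tmem119 -0.24 to 0.20, Trbc2 -0.37 to 0.29, Trem2 -0.16 to 0.20, Vegfa -0.0336 to 0.0356, mt-Atp6 -0.0629 to 0.15 and mt-Atp8 -0.20 to 0.0196. With 2 against 3 libraries, low-count genes are the least certain.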
